A study of Homo sapiens with 6 samples.

Results

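Cyclin-dependent kinase (CDK) inhibitors and the retinoblastoma (RB) proteins form the brake on entry into the cell cycle. The set described here holds 10 genes taken by symbol: the CIP/KIP inhibitors CDKN1A (p21), CDKN1B (p27) and CDKN1C (p57), the INK4 inhibitors CDKN2A (p16 and ARF), CDKN2B (p15), CDKN2C (p18) and CDKN2D (p19), and the pocket proteins RB1, RBL1 (p107) and RBL2 (p130). They are 10 of 20979 gene symbols listed in any library. Of the 10, 8 were listed in all 6 libraries and passed the expression minimum of a mean of 1 TPM (a relative transcript abundance, corrected for transcript length and for the size of the library), and CDKN2A and CDKN2B were not listed in any.

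The libraries came from A172 cells, an established human glioblastoma line, transfected with a lipid reagent and harvested after 1 day. One group received a control miRNA, one the miR-324-5p duplex (5p duplex) and one the miR-324-3p.1 duplex (3p.1 duplex), with 2 libraries in each. Whether the replicates were separate cultures is not said in the labels, and p-values cover only the spread among these libraries, which may be technical. The study is about which arm of the miR-324 precursor is used, and the transfections compare the transcriptomes that follow from each arm.

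CIP/KIP proteins bind cyclin-CDK complexes, mainly those of CDK2, whereas INK4 proteins bind CDK4 and CDK6 and keep them from D-type cyclins. Active CDKs phosphorylate the pocket proteins, which otherwise hold E2F transcription factors in check. RB1 mainly binds the activating E2F factors. RBL1 and RBL2 mainly bind the repressive ones, and join the MuvB core to form the DREAM complex that silences cell cycle genes in resting cells.

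A microRNA recognises transcripts through its seed, bases 2 to 8, and the seed match in a 3′UTR is where the members' sequences bear on a transfected duplex. The RefSeq sequences of both arms of the MIR324 hairpin (GRCh38.p14, chromosome 17, minus strand) are shown with the seed in capitals.
hsa-miR-324-5p: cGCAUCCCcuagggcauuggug
hsa-miR-324-3p: cCCACUGCcccaggugcugcugg
The 5p arm lies at chr17:7223343-7223364 and the 3p arm at chr17:7223308-7223330. The 5p seed pairs with GGGATGC in a transcript. Since no label spells out the 3p.1 duplex, the 3p arm was searched from 3 starts: that of RefSeq (GCAGTGG), 1 nt downstream (GGCAGTG) and 3 nt downstream (GGGGCAG). Matches were sought in the transcript strand of the longest annotated 3′UTR of each gene (GENCODE 29, GRCh38). A match of at least 7 letters counted: GGGATGC with or without a following A, or its last 6 letters followed by A.

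RBL1 held 7 matches to the miR-324-5p seed in its 3′UTR of 2410 nt, all of them GGGATGC with no following A (7mer-m8 class). They are printed 5′ to 3′ with 4 flanking bases on each side and the seed match in capitals, because their number and likeness set RBL1 apart from the other members.
RBL1 site 1: actaGGGATGCtttt
RBL1 site 2: attaGGGATGCtttt
RBL1 site 3: actaGGGATGCtttt
RBL1 site 4: gttaGGGATGCtttt
RBL1 site 5: actaGGGATGCtttt
RBL1 site 6: gctaGGGATGCtttt
RBL1 site 7: actaGGGATGCtttc
The first site lies at chr20:36997367-36997373 and the last at chr20:36997197-36997203 (GRCh38, minus strand). Their starts span 170 nt. Neighbouring sites stood 19 or 21 nt apart, apart from a gap of 71 nt between sites 2 and 3. Each site had ta before and ttt after the seed match. Of 11744 tested genes with an annotated 3′UTR, 1719 (14.6%) held at least 1 such match, 299 (2.55%) at least 2 and 16 (0.136%) at least 4. RBL1 was the 1 gene with 7, and none held 8. Among the 1853 tested genes with a 3′UTR of similar length, 17.4% held a match. The other annotated RBL1 transcript with a 3′UTR ends after 119 nt and holds no match. Which of the 2 ends the cells used was not measured by gene-level TPM.

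Of the other 9 members, CDKN2B alone held a 5p match, a single GGATGCA at chr9:22003999-22004005 (minus strand), and it was not listed in any library. CDKN1A, CDKN1B, CDKN1C, CDKN2A, CDKN2C, CDKN2D, RB1 and RBL2 held none. No member held a match to GCAGTGG. For the start 1 nt downstream, RBL1 and CDKN2B held 1 match each. For the start 3 nt downstream, CDKN1C, CDKN2D and RBL1 held 1 each. Of the 11744 tested genes with an annotated 3′UTR, 32.1% held a match to GCAGTGG. For the starts 1 and 3 nt downstream the shares were 30.9% and 28%. A match is a description of the letters, not a measured site.

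**Figure D1:**
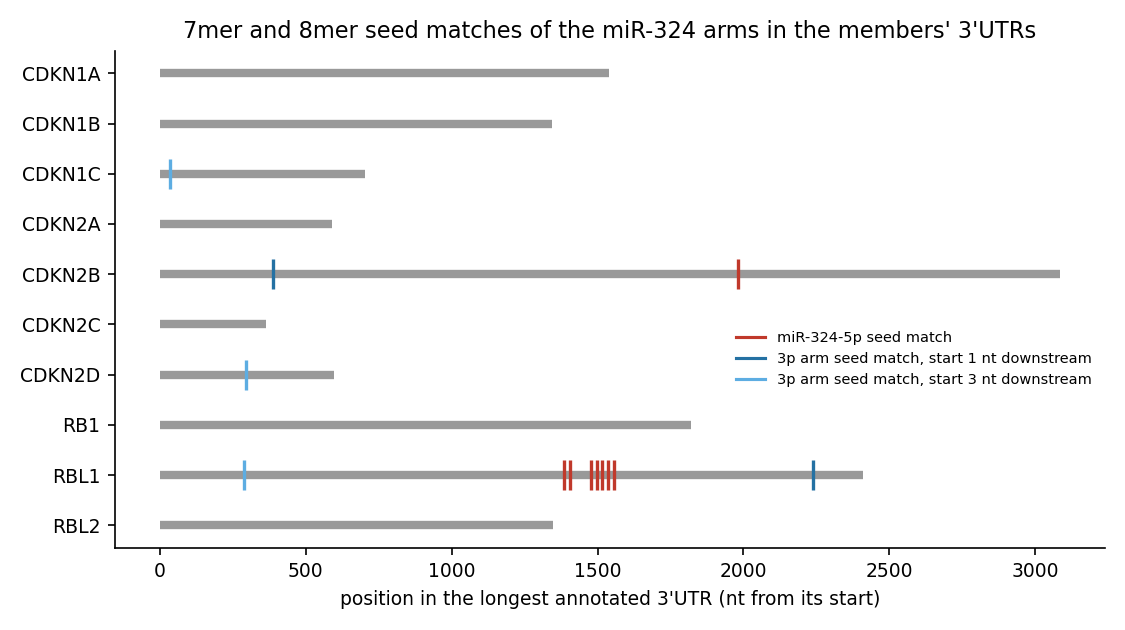
Longest annotated 3′UTR of each of the 10 genes (grey bars, nt from the start of the 3′UTR), with 7mer and 8mer matches to the miR-324-5p seed (red) and to the 3p arm read from 1 nt (dark blue) or 3 nt (light blue) downstream of the RefSeq start. RBL1 carries 7 red marks within 170 nt, CDKN2B carries 1, and the other 8 genes carry no red mark.

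The levels of the members spanned a wide range. TPM is scaled by length, so levels can be set beside each other between genes. CDKN1A stood highest, at 178.05 to 398.35 TPM over the 6 libraries. RB1 (67.59 to 87.58 TPM) and CDKN2C (68.11 to 90.69 TPM) followed, and their ranges overlapped. RBL2 stood at 48.64 to 57.90 TPM and CDKN2D at 24.66 to 39.46 TPM, each apart from its neighbours in this order. CDKN1B (14.23 to 21.82 TPM) and RBL1 (8.90 to 18.51 TPM) overlapped, and CDKN1C was the lowest listed member at 4.09 to 9.58 TPM, a range that overlapped with that of RBL1. All 10 genes lie on reference chromosomes in GENCODE 29 on GRCh38, for example RBL1 at chr20:36996349-37095995 and CDKN1A at chr6:36676460-36687339. RB1 contains or overlaps 9 other annotated genes, of which LPAR6 and RCBTB2 on the other strand were listed, with means of 9.37 and 2.80 TPM. RBL2 overlaps AKTIP on the other strand (mean 58.43 TPM). The libraries were stranded per the labels, but whether the counting used strand is not given in the sources used here, so the levels of RB1 and RBL2 are uncertain to that extent.

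**Figure D2:**
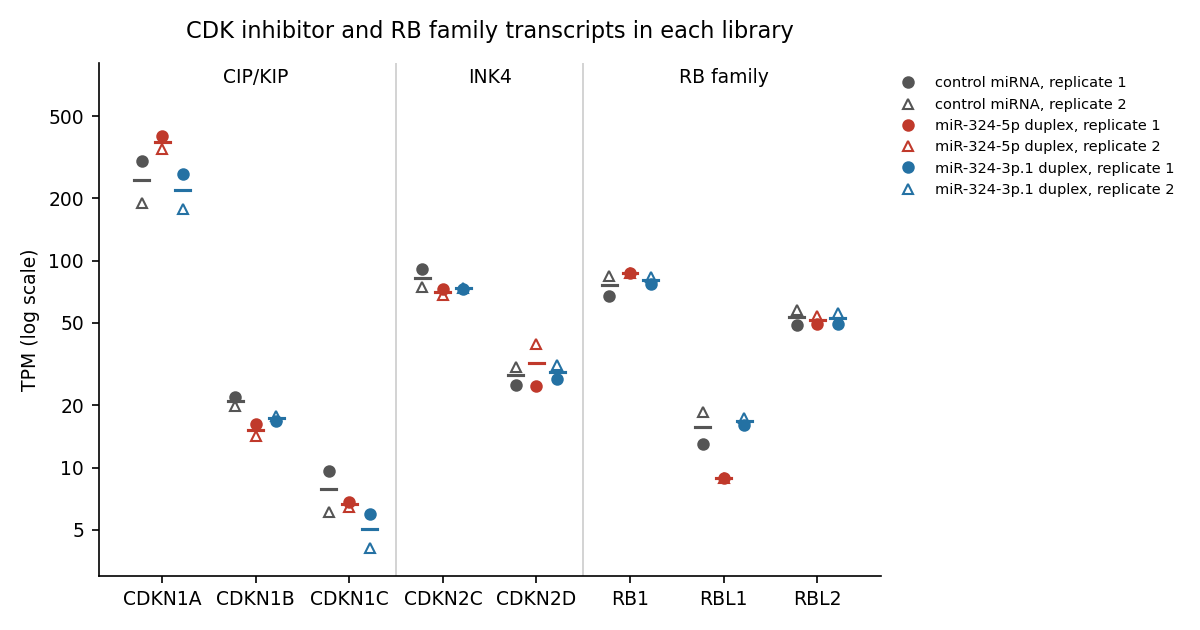
TPM (log axis) of the 8 listed members in each library. Filled circles are replicate 1, open triangles replicate 2, bars the mean of 2 libraries, and colours the 3 groups. The 2 libraries with the 5p duplex stand at 8.94 and 8.90 TPM for RBL1, below the other 4 libraries, and CDKN1A is highest in the same 2 libraries.

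Among the pocket proteins, RBL1 stood apart in the 5p duplex group. RBL1, which represses E2F target genes and is itself made as cells enter S phase, had 12.96 and 18.51 TPM in the control libraries, 8.94 and 8.90 TPM in those given the 5p duplex and 16.09 and 17.33 TPM in those given the 3p.1 duplex. Both 5p duplex libraries were lower than the other 4, while the 3p.1 duplex libraries lay between the controls. In bulk RNA, fewer cells with a transcript and less of it per cell cannot be told apart. The mean with the 5p duplex was 8.92 ± 0.0283 TPM (SD, n = 2), which is 56.7% of the control mean of 15.74 ± 3.92 TPM and 53.4% of the 3p.1 duplex mean of 16.71 ± 0.877 TPM. On the log2(TPM + 1) scale the difference was -0.73 from control (SE 0.17, 95% interval -1.14 to -0.33, limma adjusted p = 0.180) and -0.84 from the 3p.1 duplex (SE 0.17, 95% interval -1.24 to -0.43, adjusted p = 0.179). Neither passed the threshold of an adjusted p under 0.05 over the 13400 genes tested. Of the fits that left out 1 library, that without control replicate 1 called RBL1 lower than control (-0.98, adjusted p = 0.0499). The other 5 gave -0.49 to -0.74 (adjusted p = 0.325 to 0.622), and -0.49 was the value without control replicate 2. With the replicate number as a block, which the labels tie to no batch, RBL1 was called lower than control (limma adjusted p = 0.0485) and lower than with the 3p.1 duplex (adjusted p = 0.0391). Against the control, the 3p.1 duplex gave 0.10 (95% interval -0.31 to 0.51, adjusted p = 0.971).

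RB1, the retinoblastoma tumour suppressor itself, had 67.59 and 84.22 TPM in the control libraries, 87.32 and 87.58 TPM in those given the 5p duplex and 77.46 and 82.97 TPM in those given the 3p.1 duplex. The 5p duplex libraries were the highest, with control replicate 2 close to them. The log2 difference was 0.21 for the 5p duplex (95% interval -0.08 to 0.50, adjusted p = 0.692) and 0.09 for the 3p.1 duplex (95% interval -0.20 to 0.38, adjusted p = 0.962). RBL2, the pocket protein of resting cells, had 48.64 and 57.90 TPM in the control libraries, 49.50 and 53.81 TPM in those given the 5p duplex and 49.62 and 55.73 TPM in those given the 3p.1 duplex. Its groups overlapped in each comparison. Its log2 differences were -0.04 and -0.01 for the 5p and 3p.1 duplex (95% intervals -0.33 to 0.25 and -0.30 to 0.28).

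Within the summed TPM of the 3 pocket protein genes, RBL1 made up 10.0% and 11.5% in the control libraries, 6.13% and 5.92% in those given the 5p duplex and 11.2% and 11.1% in those given the 3p.1 duplex. The share of RBL2 stayed between 34.0% and 37.6% in all 6 libraries. RB1 made up 52.3% and 52.4%, 59.9% and 58.3%, and 54.1% and 53.2% in the same order. At 2 libraries a group, no exact permutation test of these shares can go below p = 0.333, and none was made.

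Of the CIP/KIP inhibitors, CDKN1A was highest with the 5p duplex. CDKN1A, which stops cells in G1, had 303.30 and 189.43 TPM in the control libraries, 398.35 and 346.86 TPM in those given the 5p duplex and 261.21 and 178.05 TPM in those given the 3p.1 duplex. The 5p duplex libraries were above the other 4, and replicate 1 was above replicate 2 in each group. The 2 controls differed by 0.676 on the log2 scale, more than in 95.7% of tested genes, where the median difference was 0.167. The log2 difference was 0.63 from control (SE 0.26, 95% interval 0.00 to 1.26, limma adjusted p = 0.546) and 0.78 from the 3p.1 duplex (95% interval 0.15 to 1.41, adjusted p = 0.416). With a replicate block the second was called (limma adjusted p = 0.0340) and the first was not (adjusted p = 0.0509). The first was 0.29 without control replicate 2 and 0.97 without control replicate 1. The 3p.1 duplex differed from control by -0.15 (95% interval -0.78 to 0.48), a direction that turned without control replicate 1 (0.19) or 3p.1 duplex replicate 2 (0.12).

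CDKN1B, which holds CDK2 in check and is removed by the SKP2 ubiquitin ligase, had 21.82 and 19.93 TPM in the control libraries, 16.17 and 14.23 TPM in those given the 5p duplex and 16.83 and 17.82 TPM in those given the 3p.1 duplex. The 3 groups did not overlap, with the controls highest and the 5p duplex lowest. The mean with the 5p duplex was 72.8% of control and that with the 3p.1 duplex 83.0%. The log2 differences from control were -0.43 (SE 0.11, 95% interval -0.71 to -0.16, limma adjusted p = 0.242) and -0.25 (SE 0.11, 95% interval -0.53 to 0.02, adjusted p = 0.742), and the 2 duplexes share the control libraries. In the fits that left out 1 library the first ran from -0.35 to -0.52 with no call. The 5p duplex differed from the 3p.1 duplex by -0.18 (95% interval -0.45 to 0.09, adjusted p = 0.720).

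CDKN1C, an inhibitor encoded in an imprinted cluster of chromosome 11, had 9.58 and 6.09 TPM in the control libraries, 6.81 and 6.46 TPM in those given the 5p duplex and 5.97 and 4.09 TPM in those given the 3p.1 duplex. The 3p.1 duplex libraries were the lowest, the higher of them close to control replicate 2. The log2 difference of the 3p.1 duplex from control was -0.54 (95% interval -1.11 to 0.03, limma adjusted p = 0.736). It was -0.25 without control replicate 1 and -0.83 without control replicate 2. For the 5p duplex the value was -0.18 (95% interval -0.75 to 0.38, adjusted p = 0.892), and it turned to 0.11 without control replicate 1.

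Within the CIP/KIP family there were 24.6 and 24.4 CDKN1A transcripts per CDKN1B transcript with the 5p duplex, against 13.9 and 9.50 in the controls and 15.5 and 9.99 with the 3p.1 duplex. CDKN1A made up 94.5% and 94.4% of the summed CIP/KIP TPM with the 5p duplex, against 87.9% to 92.0% in the other 4 libraries. These ratios and shares are a description of levels, and no test of them was made.

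Neither of the listed INK4 inhibitors was called by limma in any comparison. CDKN2C had 90.69 and 74.72 TPM in the control libraries, 72.76 and 68.11 TPM in those given the 5p duplex and 73.23 and 73.71 TPM in those given the 3p.1 duplex. Control replicate 1 stood above the other 5 libraries, which lay between 68.11 and 74.72 TPM. The log2 differences from control were -0.22 (95% interval -0.50 to 0.05) and -0.16 (95% interval -0.44 to 0.11) for the 5p and 3p.1 duplex. Without control replicate 1 they were -0.08 and -0.02. CDKN2D had 25.09 and 30.74 TPM in the control libraries, 24.66 and 39.46 TPM in those given the 5p duplex and 26.88 and 31.31 TPM in those given the 3p.1 duplex. Replicate 2 was the higher in each group, and the groups overlapped in all 3 comparisons. Its log2 differences from control were 0.16 (95% interval -0.38 to 0.71) and 0.06 (95% interval -0.48 to 0.61).

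**Figure D3:**
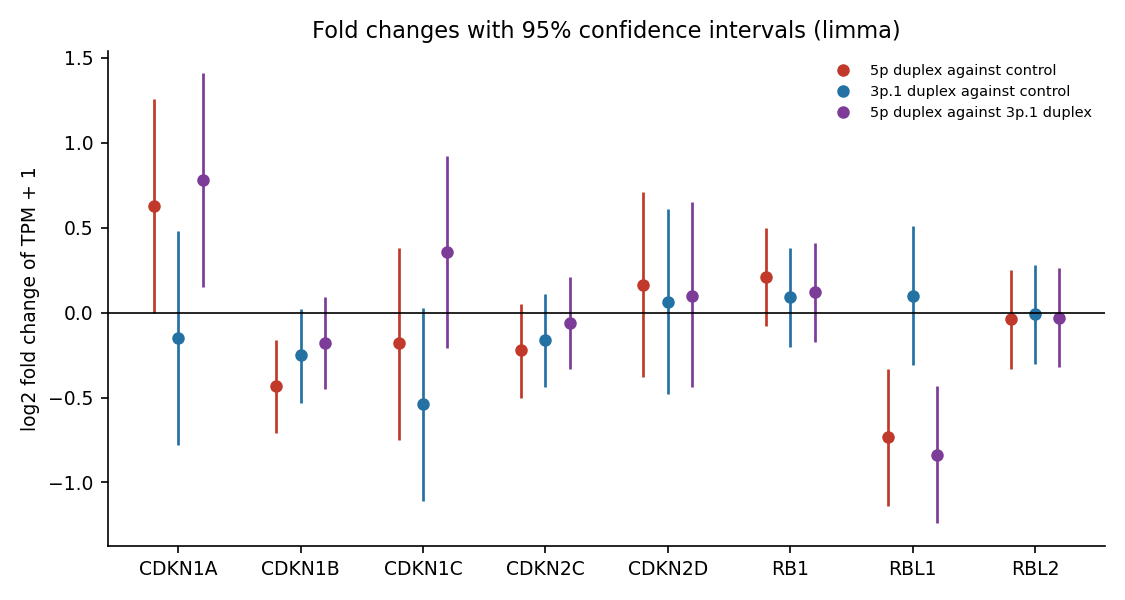
Log2 fold changes of TPM + 1 for the 8 tested members in the 3 comparisons (points), with 95% confidence intervals from limma (lines). The intervals of RBL1 exclude 0 for the 5p duplex against control (-1.14 to -0.33) and against the 3p.1 duplex (-1.24 to -0.43). Those of CDKN1B (5p duplex against control) and CDKN1A (5p against 3p.1 duplex) also exclude 0, and no member passed an adjusted p under 0.05 in this fit without a replicate block.

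In the fit of all 6 libraries without a replicate block, no member was called in any comparison by limma, over all genes. With the block, the calls were RBL1 in both comparisons of the 5p duplex and CDKN1A against the 3p.1 duplex, where 367, 30 and 278 genes were called in the 3 comparisons. With the 5p duplex against control, 0 of 8 members were called, where 62 of 13400 genes (0.463%) were. At an unadjusted p under 0.05 there were 2 of 8 members, RBL1 and CDKN1B, against 9.16% of all genes. Groups did not overlap for 3 members that were lower (CDKN1B, CDKN2C and RBL1) and 2 that were higher (CDKN1A and RB1), where 22.1% of all genes were lower and 12.7% higher without overlap. The median log2 difference of the 8 members was -0.11, beside -0.03 for all genes. With the 3p.1 duplex against control, 0 of 8 members were called, where 2 genes (0.0149%) were, and 0 of 8 had an unadjusted p under 0.05, against 6.86% of genes. CDKN1B, CDKN1C and CDKN2C were lower without overlap and no member was higher, against 24.1% and 12.1% of genes, and the median was -0.08 beside -0.03. For the 5p against the 3p.1 duplex, 0 of 8 were called, where 58 genes (0.433%) were. RBL1 and CDKN1A had an unadjusted p under 0.05, as 9.34% of genes did. CDKN1A, CDKN1C and RB1 were higher and CDKN1B, CDKN2C and RBL1 lower without overlap, against 21% and 19.4% of genes, and the median was 0.04 beside 0.01.

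Other genes of the pathway were followed in lists, and 0 genes of these lists were called by limma in any comparison. Of the cyclins and CDKs, 14 of 15 were tested. With the 5p duplex 7 had positive and 7 negative log2 differences (median 0.00, 2 with an unadjusted p under 0.05), and with the 3p.1 duplex 12 were positive (median 0.11, 1 with an unadjusted p under 0.05). Over all 13400 genes 5720 and 5491 were positive in these comparisons, and 9.16% and 6.86% had an unadjusted p under 0.05 by limma. CCND3, a D-type cyclin that pairs with CDK4 and CDK6, had 60.04 and 71.68 TPM in the control libraries, 40.52 and 41.30 TPM in those given the 5p duplex and 44.29 and 44.43 TPM in those given the 3p.1 duplex. Its log2 differences were -0.67 (adjusted p = 0.0753) and -0.55 (adjusted p = 0.362), and its 3′UTR held 1 match to the miR-324-5p seed. CCNE1, the partner of CDK2 at the start of S phase, had -0.26 with the 5p duplex (adjusted p = 0.458). CDK6, a partner of D-type cyclins, had 0.40 (adjusted p = 0.576), and its 3′UTR also held 1 match. CCND3 and CDK6 were the 2 of these 14 genes with a match, where 14.6% of all tested genes with a 3′UTR held at least 1.

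The E2F and DP factors, which the pocket proteins bind, lay close to 0. With the 5p duplex the 10 tested factors ranged from -0.11 to 0.11 (median -0.02, 0 with an unadjusted p under 0.05), and with the 3p.1 duplex from -0.14 to 0.25 (median 0.02, again 0). E2F1, an activating factor, had the highest of these with the 3p.1 duplex (0.25, limma adjusted p = 0.770). The 7 MuvB genes and partners had medians of -0.02 and 0.10, with LIN9, a core subunit, at -0.17 and 0.13 and 0 genes at an unadjusted p under 0.05 in either. The 19 S phase genes that E2F factors drive had a median of -0.11 with the 5p duplex, 18 of them negative, and of 0.07 with the 3p.1 duplex, 14 of them positive. Over all 13400 genes the median was -0.03 in both comparisons, with 7671 and 7904 negative, and 2 and 1 of the 19 had an unadjusted p under 0.05. Between the 2 duplexes their median was -0.21, with 17 negative and 6 at an unadjusted p under 0.05, where 9.34% of all genes were. The median of all 13400 genes between the 2 duplexes was 0.01, with 6521 negative. CDT1, which loads the replicative helicase, had 19.19 and 19.92 TPM in the control libraries, 11.79 and 14.83 TPM in those given the 5p duplex and 19.66 and 18.27 TPM in those given the 3p.1 duplex (log2 -0.53 for the 5p duplex, adjusted p = 0.220).

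Genes that remove p21 and p27 had medians of 0.01 and 0.02 with the 5p and 3p.1 duplex (12 genes, with 0 and 1 at an unadjusted p under 0.05 by limma). SKP2, the ligase subunit that recognises p27, had 64.89 and 88.83 TPM in the control libraries, 52.44 and 67.12 TPM in those given the 5p duplex and 64.08 and 80.93 TPM in those given the 3p.1 duplex (log2 -0.35 for the 5p duplex, adjusted p = 0.691). Of 20 tested upstream regulators, 16 were negative with the 5p duplex (median -0.07, 3 with an unadjusted p under 0.05) and 14 with the 3p.1 duplex (median -0.06, 0). Over all 13400 genes 7671 and 7904 were negative, and 9.16% and 6.86% had an unadjusted p under 0.05 by limma. FOXO3, a transcription factor that induces CDKN1B and RBL2, had 15.71 and 18.44 TPM in the control libraries, 8.87 and 9.11 TPM in those given the 5p duplex and 14.69 and 15.79 TPM in those given the 3p.1 duplex. Its log2 difference for the 5p duplex was -0.85 (SE 0.12, adjusted p = 0.0586), and its 3′UTR held 2 matches to the miR-324-5p seed. SP1, another transcription factor with 2 matches, had -0.06 with the 5p duplex (limma adjusted p = 0.944). Of the 20 regulators 5 held at least 1 match, where 14.6% of all tested genes with a 3′UTR did. ID1, an inhibitor of basic helix-loop-helix factors, had -0.74 (adjusted p = 0.260). SMAD4, the shared partner of the receptor SMADs, had -0.33 (adjusted p = 0.509).

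Genes with the most similar profile were taken as the 3 with the smallest distance to a member in centred log2(TPM + 1) over the 6 libraries, among 10623 genes averaging 5 TPM or more. For RBL1, whose own profile had a length of 0.976, they were RCAN1 (distance 0.157), TBC1D2B (0.159) and FRMD6 (0.208). For CDKN1A (length 1.04) they were the long non-coding RNA OLMALINC (0.305), BTG2 (0.358) and DDB2 (0.407). For CDKN1B (length 0.465) they were ACOT13 (0.0930), ARSD (0.110) and TSHZ3 (0.111), and for CDKN1C (length 0.757) NINJ1 (0.188), FAM117A (0.188) and ZNF385A (0.193). For CDKN2C (0.309), CDKN2D (0.553), RB1 (0.314) and RBL2 (0.229) the nearest genes were DECR2, SMTN, UBE3C and SLC31A1. These are descriptions over 6 libraries of 3 groups and carry no test.

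CDKN2A and CDKN2B, the INK4 inhibitors of the 9p21 locus, were not listed in any of the 6 libraries, in lists whose lowest value was 0.01 TPM. The locus is deleted in many glioblastomas. CDKN2A lies at chr9:21967753-21995301 and CDKN2B at chr9:22002903-22009363 (GRCh38, both minus strand). Their neighbour MTAP, a metabolic enzyme of methionine salvage that most cells express and whose start site lies 193 kb away, was listed in 4 libraries at 0.03 to 0.07 TPM. CDKN2B-AS1, the antisense transcript of the locus, stood at 0.09 to 0.46 TPM. Several genes farther out were listed at higher levels, while the interferon gene IFNE, in the list of neighbours, was not listed. KLHL9, an adaptor of a ubiquitin ligase whose start lies 660 kb away on the MTAP side, stood at 28.71 to 33.42 TPM, and FOCAD, at 1337 kb, at 18.04 to 22.28 TPM. HACD4, which lies between KLHL9 and FOCAD at 964 kb, stood at only 0.20 to 0.31 TPM. On the other side DMRTA1, at 452 kb, stood at 0.58 to 1.31 TPM and ELAVL2, at 1831 kb, at 1.67 to 3.24 TPM. DNA copy number was not measured, so loss of the genes and lack of their transcription cannot be told apart here. Of the neighbours, KLHL9, FOCAD, MLLT3 and ELAVL2 passed the expression minimum, and 0 of these 4 were called by limma or had an unadjusted p under 0.05 with either duplex (adjusted p of 0.704 and above with the 5p duplex and 0.862 and above with the 3p.1 duplex). MTAP, CDKN2B-AS1, DMRTA1 and HACD4 were below the minimum and were not tested.

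**Figure D4:**
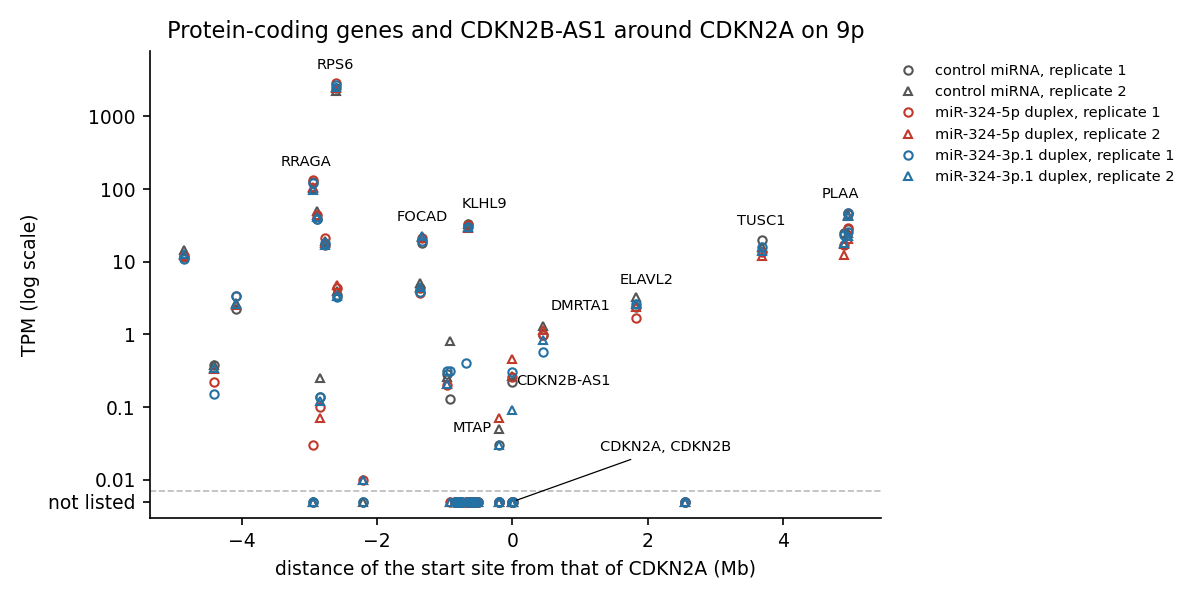
TPM (log axis) in each library of protein-coding genes and CDKN2B-AS1, by the distance of their start site from that of CDKN2A (Mb). Points below the dashed line are genes not listed in that library. CDKN2A and CDKN2B are not listed in any library and MTAP stands at no more than 0.07 TPM, while KLHL9 stands at 28.71 TPM or more.

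Between 13216 and 13536 genes reached 1 TPM per library, and depth is unknown because TPM keeps no read number. Of 9 glioma and mesenchymal markers 8 were listed, summing to 5706 to 6783 TPM. VIM and CD44, mesenchymal genes, were at 4787.63 TPM and 708.19 TPM or more. NES, a neural progenitor gene, was at 90.92 to 132.54 TPM, and OLIG2, SOX2 and CHI3L1 were at 2.75 to 4.98, 1.75 to 3.29 and 1.91 to 2.91 TPM. The astrocyte marker GFAP was at most 0.25 TPM, TNC at most 0.46 TPM, and S100B was not listed. Epithelial (5 genes), blood and endothelial (8) and neuronal (5) markers summed to 3.30 to 4.81, 7.22 to 9.15 and 21.65 to 26.14 TPM, with CD3E and HBB among those not listed. PTPRC, a leukocyte gene, made up most of the blood and endothelial sum (5.52 to 7.48 TPM), and SYT1 (10.12 to 12.06 TPM) and GAD1 (10.18 to 13.61 TPM) most of the neuronal sum. The summed level of 10 interferon response genes was 849.5 and 2555 TPM in the control libraries, 255.7 and 204.1 TPM for the 5p duplex and 227.1 and 228.1 TPM for the 3p.1 duplex. All 10 had negative log2 differences from control with both duplexes (median -3.17 and -3.27, with 4 and 0 called by limma and 10 and 10 at an unadjusted p under 0.05), and their part in the differences of RBL1, CDKN1B or CDKN1A from control was not tested.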

How the data were processed

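Gene expression was measured by oligo-dT enriched, stranded RNA-seq (100 bp pairs, per the labels' protocols) in 6 libraries of A172 cells. For each library the authors deposited a list that pairs gene symbols with TPM. RSEM and GRCh38 are named per the submitters' processing notes, with the aligner, annotation and versions not given in the sources used here. The lists were joined by symbol, unlisted symbols counted as 0, and repeated symbols (21 to 23 a library) were summed. Libraries were grouped by the labels. TPM keeps no depth, so no count test and no counting interval was possible.

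The 13400 genes averaging 1 TPM or more were analysed as log2(TPM + 1), which understates changes of low genes, in 1 model of group means over 6 libraries with limma 3.58.1 in R 4.3.3 (variance trend, 3 residual and 3.38 prior degrees of freedom, tested on simulated data). Tests were two-sided, with Benjamini-Hochberg adjustment over all genes, and an adjusted p under 0.05 was a call. Sites were sought with Python 3.11.15 in the longest GENCODE 29 3′UTR, and microRNA sequences are from RefSeq. The alternatives were a pseudocount of 0.1 TPM, no minimum or one of 5 TPM, no variance trend, 2 groups only, quantile normalization, a replicate block and leaving out each library.

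Named genes were the 10 members, and of each list the genes called and up to 3 by p per duplex, of which some are given here. Outside it, the 9p21 neighbours and the extremes of the genes with most seed matches were chosen after their values were seen. The members and lists were chosen with earlier results of these data known. The results of 1 pathway list and of single genes in others are not reported here.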

Additional observations from a re-analysis of the deposited data

How the results depend on the processing

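Of 312 values of single members under the alternatives, 290 kept their direction and side of the threshold, 18 changed sign and 4 passed it. Depth is unknown and 2 libraries per group limit all tests. The genes called with the 5p duplex against control, the 3p.1 duplex against control and the 5p against the 3p.1 duplex (62, 2 and 58) became 9, 0 and 5 with no filter on low values and 11, 18 and 19 with only the 2 groups compared. Without a variance trend the first and last became 33 and 5. Leaving out 1 library gave 7 to 128, 5 to 94 and 7 to 26. Members called with the 5p duplex against control were 0 to 1 in those fits, the 1 being RBL1 without control replicate 1.

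The labels tie the replicate numbers to no batch, and the deviations of equally numbered libraries correlated across genes at 0.265 to 0.383. With a replicate block, 367, 30 and 278 genes were called, and 1, 0 and 2 members: RBL1 (-0.73, limma adjusted p = 0.0485) against control, and RBL1 (-0.84, adjusted p = 0.0391) and CDKN1A (0.78, adjusted p = 0.0340) against the 3p.1 duplex. It changed no other member's call.

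The sign changes were of values near 0, none of them called. With quantile normalization RBL2 was 0.00 and 0.01 for the 5p and 3p.1 duplex. Leaving out 1 library gave, for the 5p duplex against control, -0.47 to 0.11 for CDKN1C, -0.17 to 0.49 for CDKN2D and -0.16 to 0.08 for RBL2. For the 3p.1 duplex it gave -0.49 to 0.19 for CDKN1A, -0.08 to 0.20 for CDKN2D, -0.07 to 0.24 for RB1, -0.14 to 0.34 for RBL1 and -0.14 to 0.11 for RBL2. Between the duplexes it gave -0.23 to 0.43 for CDKN2D and -0.11 to 0.06 for RBL2. The cause of these changes was not tested.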

Other observations

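The 16 tested genes whose 3′UTR held at least 4 matches to the miR-324-5p seed were listed after the sites of RBL1 had been seen, so they carry no test. RBL1 had the shortest 3′UTR of them (2410 nt, the next 3245 nt and the longest 16804 nt). With the 5p duplex 14 of the 16 had negative log2 differences (-0.93 to 0.07, median -0.40, 0 called by limma), and with the 3p.1 duplex 9 did (median -0.05). Over all 13400 genes, 7671 and 7904 were negative in these comparisons. MGAT3, a glycosyltransferase with 5 matches, was the lowest. It had 3.58 and 3.89 TPM in the control libraries, 1.32 and 1.65 TPM in those given the 5p duplex and 2.33 and 2.67 TPM in those given the 3p.1 duplex. TTC7B, with 4 matches, was the highest, and its 5p duplex libraries (36.19 and 38.59 TPM) overlapped with the controls (33.74 and 37.53 TPM).

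CDKN1C lies in an imprinted cluster on 11p15, of which 9 neighbours were tested and 0 called by limma with either duplex (1 with an unadjusted p under 0.05 in each). Among all 13400 genes, 0.463% were called with the 5p duplex and 0.0149% with the 3p.1 duplex. The shares with an unadjusted p under 0.05 by limma were 9.16% and 6.86%. SLC22A18AS, an antisense transcript of the cluster, had 2.63 and 1.84 TPM in the control libraries, 1.36 and 1.16 TPM in those given the 5p duplex and 0.82 and 1.37 TPM in those given the 3p.1 duplex. Its log2 differences from control were -0.51 and -0.63 (adjusted p = 0.532 and 0.604). The medians of the 9 neighbours were -0.05 and -0.05, beside -0.03 for all genes in both comparisons.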
